A study of Chlorocebus aethiops with 36 samples.

Results

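The genes described here carry fatty acids into oxidation in the liver. They were 33 named genes of mitochondrial and peroxisomal fatty acid oxidation, chosen by name with earlier results of these data known. Each was read by its brightest probe set among those the annotation gives to that symbol alone. Of the 33, 31 had such a probe set, among 19775 genes with one on the array, and all 31 passed the filter on dim probe sets that left 13634 tested genes. They were 19 of the 20 mitochondrial genes named, 8 of the 9 peroxisomal ones and 4 genes of other location. ACOT2, whose probe set is shared with another gene, and SCP2 were not analysed here.

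Livers of 12 male African green monkeys were biopsied 3 times, giving 36 human-design Affymetrix arrays in 6 groups of 6. All 12 animals ate normal chow at baseline, at week -5 before any treatment, and at week 4. They had been on a high carbohydrate, moderate cholesterol diet for 8 weeks at week 12. Of the animals, 6 were given anti-miR-33, an oligonucleotide that blocks the microRNA miR-33, and 6 a control oligonucleotide, each under the skin at 5 mg/kg on a repeated schedule up to week 12. All animals therefore carried an injected oligonucleotide at weeks 4 and 12, no animal stayed on chow, and a change over time cannot be told apart into treatment, diet and time. The labels give no age. The week 4 array of control animal 1 carries the diet label of week 12.

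Long-chain fatty acids are activated to acyl-CoA, cross the inner mitochondrial membrane as carnitine esters, and are shortened there in repeated turns of dehydrogenation, hydration, a second dehydrogenation and thiolysis. Peroxisomes run a parallel chain with their own enzymes, shortening very long and branched fatty acids and the side chain of bile acid precursors, and hand shortened products to mitochondria. In liver the acetyl-CoA that results also feeds ketone bodies, and the receptor PPARA drives many of these genes. Reported targets of miR-33 include CPT1A, CROT and HADHB, which act in the same chain, so the comparison of arms asks whether the rest of the chain differs when miR-33 is blocked.

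Array values are RMA values on the log2 scale, so a difference of 1 is a doubling. Single genes were not ranked by level against each other, since probes of human design can mismatch a monkey transcript. For the same reason the mitochondrial minus peroxisomal mean given further on is read only for its differences between times and arms, not for its own level. The hepatocyte genes ALB, APOA1 and TTR had mean log2 levels of 13.82, 14.65 and 14.08. The mean level of 20 hepatocyte markers lay between 12.04 and 12.48 on all arrays but 1, the week 12 array of control animal 5, at 11.80. The numbers in the array labels run on from the baseline to the week 12 arrays and are separate for the week 4 arrays, so a change to or from week 4 cannot be told apart from that separate run. Control probe sets at the 3′ and 5′ ends of GAPDH and ACTB differed, 3′ minus 5′, a value that is larger where RNA is more degraded, by 2.57 ± 0.43 (SD, n = 12) at baseline, 1.94 ± 0.41 at week 4 and 1.83 ± 0.16 at week 12. Markers of endothelial cells moved over time as well: 11 of 14 fell and 0 rose in limma from baseline to week 12, their mean level running from 6.64 to 7.27 at baseline and from 6.13 to 6.59 at week 12. Of 9 stellate and fibroblast markers 5 fell and 0 rose over that interval, and of 9 macrophage markers 3 fell and 0 rose. Of all tested genes, 16.5% fell and 10.9% rose over it. The mean level of blood markers went from 6.421 at baseline to 6.155 at week 12. That of cholangiocyte markers went from 5.468 to 5.561, and that of lymphocyte markers from 5.021 to 4.982. The part of these other cells in the results was not tested. In a whole biopsy, fewer cells of a type and less RNA per cell cannot be told apart.

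Between baseline and week 12, the pair of times in the same number run, more of the oxidation genes fell than rose. Of the 31 genes, 16 passed an adjusted p of 0.05 in limma, 11 lower and 5 higher, against 27.4% of all tested genes (16.5% lower and 10.9% higher). Called genes made up 51.6% of the 31. Since the 31 were chosen with earlier results of these data known, their share beside the background is a description only. The mitochondrial genes gave 8 lower and 3 higher of 19, and the peroxisomal genes 2 lower and 1 higher of 8. The median change of the 31 was -0.03, against -0.01 over all tested genes. All 16 changed in the same direction in both arms. The calls were made on the average of the arms, which favours such agreement, so it is not separate support. The values at the 2 times overlapped for each of the 16.

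**Figure D1:**
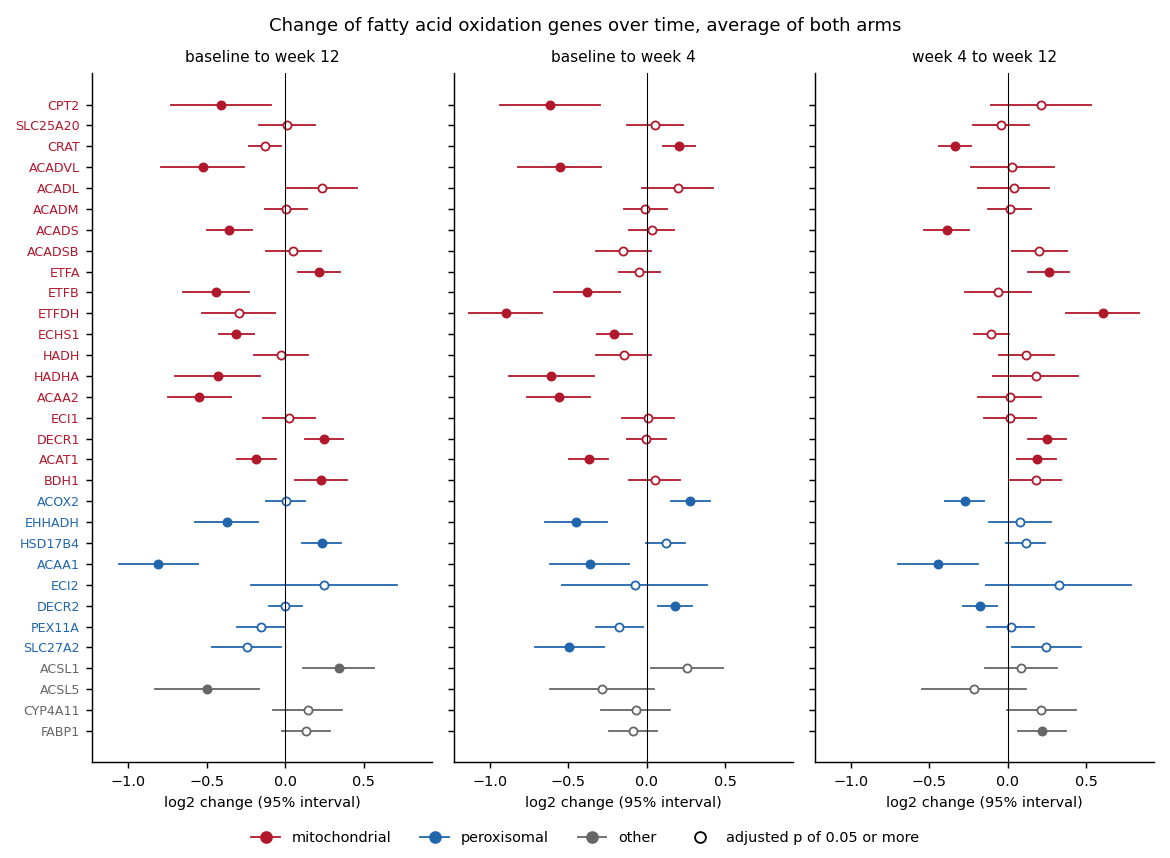
Log2 change of the 31 genes, average of both arms (6 animals each), with 95% intervals from the limma fit; panels are the 3 changes over time, colours give the location, and open points did not pass an adjusted p of 0.05. ACAA1 lies furthest to the left from baseline to week 12 (-0.81) and ETFDH from baseline to week 4 (-0.90), while points to the right stay within 0.34 from baseline to week 12.

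The largest of these changes from baseline to week 12 among the 31 genes was that of ACAA1, the peroxisomal thiolase that releases acetyl-CoA at the end of each turn. Its log2 level ran from 9.40 to 10.45 with a median of 9.95 at baseline, from 8.88 to 10.11 with a median of 9.58 at week 4, and from 8.11 to 9.91 with a median of 9.16 at week 12. It was lower at week 12 than at baseline in all 12 animals, though the 2 sets of values overlapped. The fall was 0.81 on the log2 scale (-0.81 ± 0.13 SE, 1.75-fold lower, limma adjusted p = 7.68e-06), and it was -0.85 ± 0.18 in the control arm and -0.77 ± 0.18 in the anti-miR-33 arm. The ACAA1 probe set is of a kind that may also bind other transcripts. The second ACAA1 probe set fell by 0.73 on the log2 scale over the same interval. The changes were -0.36 (adjusted p = 0.0216) to week 4 and -0.45 (adjusted p = 0.00758) from week 4 to week 12. The first of these calls was lost without the fourth control animal (-0.31, adjusted p = 0.0523) and without the fourth anti-miR-33 animal (-0.31, adjusted p = 0.0659), with quantile normalization (-0.30, adjusted p = 0.0573) and with the 3′ minus 5′ value in the fit (-0.32, adjusted p = 0.158).

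Its mitochondrial counterpart is ACAA2, the thiolase of the inner chain. ACAA2 ran from 10.97 to 11.91 with a median of 11.38 at baseline, from 10.49 to 11.39 with a median of 10.82 at week 4, and from 10.20 to 11.18 with a median of 10.94 at week 12. It stood lower at both later times, with all 12 animals down at week 4 and 11 of 12 at week 12, and the ranges of the later times overlapped with that of baseline. The change to week 12 was -0.55 ± 0.10 (SE, 1.46-fold lower, adjusted p = 6.78e-05). Another 2 probe sets of ACAA2, both dim, gave -0.06 and 0.04 over that interval and 0.33 and -0.06 to week 4, so the fall rests on the brightest probe set. With the mean of all ACAA2 probe sets the change to week 4 was -0.10 and did not pass (adjusted p = 0.121).

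Activation and transport into mitochondria gave changes in both directions. ACSL1 and ACSL5, which join long-chain fatty acids to coenzyme A, moved apart from baseline to week 12: ACSL1 rose by 0.34 ± 0.11 (SE, adjusted p = 0.0214) and ACSL5 changed by -0.50 ± 0.16 (adjusted p = 0.0196). ACSL1 values ran from 10.92 to 12.08 at baseline and from 11.55 to 12.57 at week 12, with 11 of 12 animals up and overlapping ranges. A second ACSL1 probe set, also bright, gave -0.04, and to week 4 it gave -0.22 where the first gave 0.26. ACSL5 values ran from 7.67 to 9.14 at baseline and from 7.14 to 8.88 at week 12, with 9 of 12 animals down, and its second probe set gave -0.31. The ACSL1 call was lost without control animal 3 or without animal 4 of the anti-miR-33 arm, where its change was 0.32 and 0.23 (adjusted p = 0.056 and 0.106), with the mean of its probe sets (0.15, adjusted p = 0.242) and with arrays taken as independent (adjusted p = 0.0509). The ACSL5 call was lost without control animal 5 or without animal 5 of the anti-miR-33 arm, where its change was -0.41 and -0.40 (adjusted p = 0.0767 and 0.0845). From baseline to week 4 the ACSL1 change of 0.26 had an adjusted p of 0.0712. It passed with the animal as a fixed block (adjusted p = 0.0273), with quantile normalization (0.26, adjusted p = 0.0438) and without control animal 4 (0.31, adjusted p = 0.0444).

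CPT2, which turns acylcarnitines back into acyl-CoA on the matrix side, had larger changes from baseline than CRAT and SLC25A20, the other carnitine genes among the 31. Its values ran from 8.99 to 10.41 with a median of 9.79 at baseline, from 8.42 to 9.60 with a median of 9.22 at week 4, and from 8.69 to 10.27 with a median of 9.21 at week 12. All 12 animals were lower at week 4, while at week 12 the highest animals were back within the upper baseline range. The change to week 4 was -0.62 ± 0.16 (SE, adjusted p = 0.00225) and that to week 12 was -0.41 ± 0.16 (adjusted p = 0.0493). The second CPT2 probe set gave -0.62 and -0.42. The week 12 call was lost when control animal 1, 3 or 5, or animal 2, 5 or 6 of the anti-miR-33 arm, was left out, without the week 12 array of control animal 5 (-0.35, adjusted p = 0.0999) and without the week 4 array of control animal 1 (-0.41, adjusted p = 0.0515). Without each of these 6 animals its change lay between -0.42 and -0.30 and its adjusted p between 0.0734 and 0.189. The call was also lost with no filter (adjusted p = 0.0714), with arrays centred on their median (-0.38, adjusted p = 0.0666), with a trended and robust variance (adjusted p = 0.0622) and with arrays taken as independent (adjusted p = 0.0965).

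The other transport genes changed little or only around week 4. SLC25A20, the carrier that exchanges acylcarnitine for carnitine, had changes of 0.05 to week 4 and 0.01 to week 12, neither past the threshold (adjusted p = 0.662 and 0.964). CRAT, which handles short-chain carnitine esters in mitochondria and peroxisomes, ran from 8.27 to 8.70 at baseline, from 8.47 to 8.86 at week 4 and from 8.15 to 8.49 at week 12. Its week 4 values were the highest, overlapping widely with baseline and by little with week 12. The CRAT probe set may also bind other transcripts, and a second one gave 0.22 and -0.27 over the next 2 changes. From baseline to week 12 the second one gave -0.045. CRAT rose by 0.21 ± 0.05 to week 4 (adjusted p = 0.00145) and fell by 0.34 on the log2 scale from week 4 to week 12 (-0.34 ± 0.05, adjusted p = 1.12e-05, 12 of 12 animals down). These 2 changes share the week 4 arrays. CRAT's change from baseline to week 12 of -0.13 missed the threshold (adjusted p = 0.0508), and it passed without control animal 6 (-0.15, adjusted p = 0.0217), animal 5 of the anti-miR-33 arm (-0.15, adjusted p = 0.0337) or the week 4 array of control animal 1 (-0.13, adjusted p = 0.044), and with a filter at a mean of 6 (adjusted p = 0.0312). FABP1, the abundant fatty acid carrier of hepatocyte cytosol, rose by 0.22 ± 0.08 from week 4 to week 12 (adjusted p = 0.0277). That FABP1 call was lost without any of control animals 2, 3 and 4 and anti-miR-33 animals 2 and 3, where the change lay between 0.17 and 0.21 (adjusted p from 0.0573 to 0.0988), and with quantile normalization (0.14, adjusted p = 0.144). To week 4 FABP1 changed by -0.09 (adjusted p = 0.385), and by -0.16 with the mean of its probe sets (adjusted p = 0.0153). From baseline to week 12 FABP1 changed by 0.13 (adjusted p = 0.202), by 0.23 without control animal 5 (adjusted p = 0.00343) and by 0.20 without that animal's week 12 array alone (adjusted p = 0.0133). A second FABP1 probe set, barely above the filter, gave -0.02 over that interval and 0.23 from week 4 to week 12.

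The acyl-CoA dehydrogenases take the first step of each turn and divide the chain lengths among them. ACADVL, for very long chains, ran from 11.23 to 12.59 with a median of 12.21 at baseline, from 10.92 to 12.34 with a median of 11.54 at week 4 and from 11.11 to 12.03 with a median of 11.60 at week 12. At both later times 10 of 12 animals were lower than at baseline, and the ranges overlapped. Its change was -0.53 ± 0.13 to week 12 (SE, 1.44-fold lower, adjusted p = 0.00224). ACADS, for short chains, ran from 6.24 to 7.01 at baseline, from 6.43 to 7.13 at week 4 and from 6.18 to 6.61 at week 12. Most of its week 12 values lay below nearly all values of both earlier times. ACADS changed by -0.36 ± 0.07 from baseline (adjusted p = 0.000227) and by -0.39 ± 0.07 from week 4 (adjusted p = 0.00013, 11 of 12 animals down), while its change to week 4 was 0.03.

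The dehydrogenases of intermediate and branched chains did not pass the test. ACADM (medium chains) and ACADL (long chains) had dim probe sets, with levels of 4.74 to 5.37 and 4.54 to 5.96 against a filter at 4.459, which limits what they can show. ACADM changed by -0.01, 0.01 and 0.00 over the 3 intervals, and ACADL by 0.23 ± 0.11 to week 12 (adjusted p = 0.118, or 0.0387 with the animal as a fixed block). ACADSB, which acts on short branched chains from isoleucine, changed by -0.15 to week 4 and 0.20 from there to week 12 (adjusted p = 0.186 and 0.0833). A second ACADSB probe set of like brightness gave 0.24 and -0.05. ACADSB passed in the first interval without anti-miR-33 animal 6 (-0.21, adjusted p = 0.0452), and in the second without that animal (0.25, adjusted p = 0.0257) or control animal 4 (0.22, adjusted p = 0.0354).

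Electrons from these dehydrogenases pass through the ETFA and ETFB subunits of electron transfer flavoprotein to ETFDH, which delivers them to ubiquinone. ETFDH had the largest change to week 4 of the 31 genes. It ran from 8.58 to 9.48 with a median of 9.12 at baseline, from 7.72 to 8.87 with a median of 8.16 at week 4 and from 8.22 to 9.25 with a median of 8.80 at week 12. Every animal was lower at week 4 than at baseline, and 11 of 12 were higher again at week 12. ETFDH changed by -0.90 ± 0.11 to week 4 (SE, 1.86-fold lower, adjusted p = 2.4e-07) and by 0.60 ± 0.11 from week 4 to week 12 (adjusted p = 0.000218), 2 changes that share the week 4 arrays. A second ETFDH probe set gave -0.70 and 0.51. From baseline to week 12 its change of -0.30 had an adjusted p of 0.0508. It passed with the animal as a fixed block (adjusted p = 0.0261), when control animal 2, 4 or 6, or animal 3 of the anti-miR-33 arm, was left out (-0.36 to -0.31, adjusted p from 0.0213 to 0.0488), and without the week 4 array of control animal 1 (-0.30, adjusted p = 0.0365). It also passed with quantile normalization (-0.30, adjusted p = 0.0301) and with a filter at a mean of 6 (adjusted p = 0.0327).

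The subunits of the flavoprotein moved apart. ETFB ran from 11.00 to 11.86 at baseline and from 10.47 to 11.51 at week 12, lower in 10 of 12 animals, and changed by -0.44 ± 0.10 (adjusted p = 0.00131). ETFA ran from 8.70 to 9.40 at baseline and from 9.07 to 9.60 at week 12, higher in 9 of 12 animals, and rose by 0.21 ± 0.07 (adjusted p = 0.0119). With the mean of each arm and time taken off, ETFA had one of the strongest relations to the 3′ minus 5′ value among the 31 genes. Its Pearson r over the 36 arrays was -0.72, a description over arrays that share animals, while ETFB had an r of 0.08.

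**Figure D2:**
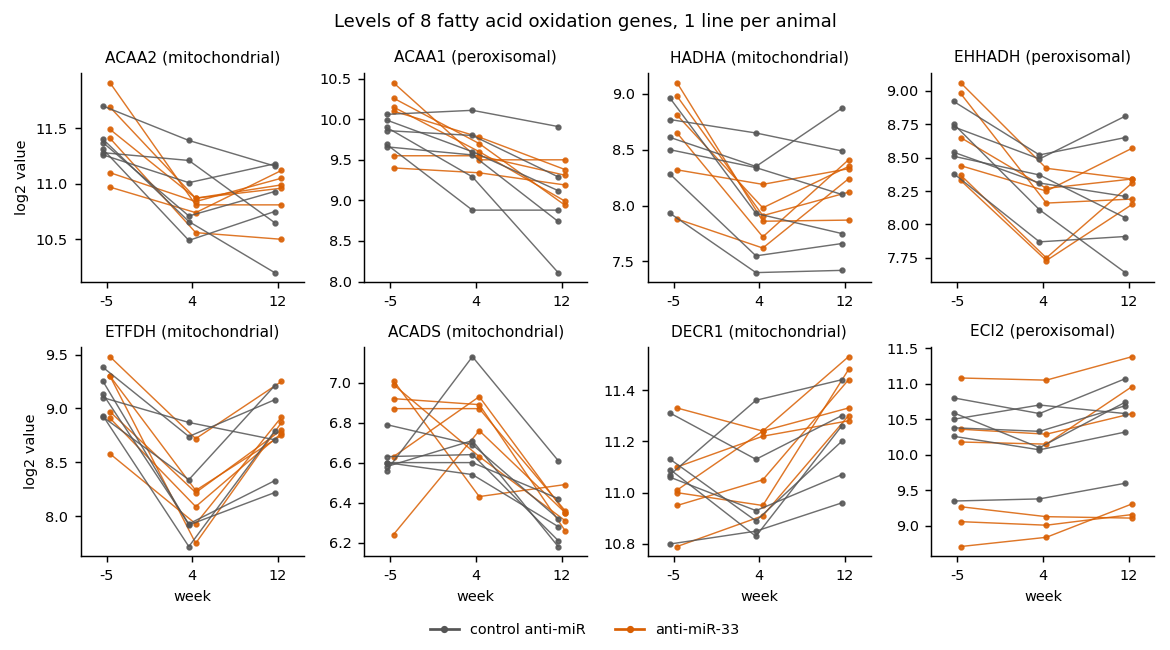
Log2 level of 8 of the genes at weeks -5, 4 and 12, with 1 line for each of the 12 animals coloured by arm. All lines for ACAA1 end lower than they begin, ETFDH dips at week 4, ACADS drops between weeks 4 and 12, and ECI2 lines run level in separate upper and lower bands.

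Among the enzymes that complete the mitochondrial turn, HADHA and ECHS1 fell and HADH did not pass. HADHA is the alpha subunit of the trifunctional protein and holds its hydratase and hydroxyacyl-CoA dehydrogenase. It ran from 7.88 to 9.10 with a median of 8.63 at baseline, from 7.40 to 8.65 with a median of 7.92 at week 4 and from 7.42 to 8.87 with a median of 8.18 at week 12. All 12 animals were lower at week 4 and 9 of 12 at week 12, with overlapping ranges. HADHA changed by -0.61 ± 0.13 to week 4 (SE, adjusted p = 0.000572) and by -0.43 ± 0.13 to week 12 (adjusted p = 0.0142). Of its other 2 probe sets, the dimmer (mean 6.05) gave -0.71 and -0.66. The other, nearly as bright as the chosen one (mean 8.00 against 8.22), gave -0.20 and -0.09. The size of the HADHA fall therefore depends on the probe set. When control animal 5, or animal 5 of the anti-miR-33 arm, was left out the HADHA change to week 12 was -0.36 and -0.35 and lost its call (adjusted p = 0.0666 and 0.0655).

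ECHS1, the hydratase of short chains, had a small and even fall. Its values ran from 9.97 to 10.39 at baseline, from 9.78 to 10.09 at week 4 and from 9.46 to 10.06 at week 12. It was lower at week 12 than at baseline in all 12 animals, with a narrow overlap of the ranges. The change was -0.31 ± 0.05 (SE, 1.24-fold lower, adjusted p = 4.67e-05). To week 4 ECHS1 changed by -0.21 (adjusted p = 0.00342), a call lost with quantile normalization (-0.14, adjusted p = 0.0513), where the change from week 4 to week 12 passed instead (-0.17, adjusted p = 0.0275). HADH, the hydroxyacyl-CoA dehydrogenase of medium and short chains, changed by -0.15 to week 4 and -0.03 to week 12 (adjusted p = 0.182 and 0.843). Its other 2 probe sets gave 0.36 and -0.30 to week 4 and 0.38 and -0.19 to week 12.

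Ketone body enzymes at the end of the mitochondrial chain also differed from each other. ACAT1, which condenses acetyl-CoA to acetoacetyl-CoA, ran from 12.41 to 12.81 at baseline, from 12.02 to 12.67 at week 4 and from 12.10 to 12.79 at week 12. The week 4 values were the lowest, with 11 of 12 animals down. ACAT1 changed by -0.37 ± 0.06 to week 4 (adjusted p = 1.58e-05), by 0.18 ± 0.06 from week 4 to week 12 (adjusted p = 0.0233) and by -0.19 ± 0.06 over both intervals (adjusted p = 0.0216). The ACAT1 call from week 4 was lost when animal 3 or 4 of the control arm, or animal 3 or 5 of the other, was left out (0.16 to 0.18, adjusted p from 0.0537 to 0.0594). The call from baseline to week 12 was lost when control animal 5, or animal 2 or 4 of the anti-miR-33 arm, was left out (-0.17 to -0.14, adjusted p from 0.057 to 0.0967), and without the week 12 array of control animal 5 alone (-0.16, adjusted p = 0.0526). With the mean of all ACAT1 probe sets the call was lost over each interval (-0.07, 0.05 and -0.02, adjusted p = 0.0841, 0.225 and 0.717), its other 2 probe sets, both below the filter, giving 0.14 and 0.01 to week 4. With quantile normalization the call from week 4 to week 12 was lost (0.12, adjusted p = 0.0912). BDH1, which interconverts acetoacetate and 3-hydroxybutyrate, rose by 0.23 ± 0.08 from baseline to week 12 (adjusted p = 0.0338). Its second probe set, which was dim, gave 0.07. The BDH1 call was lost without any of control animals 2, 3 and 6 and anti-miR-33 animals 3 and 4 (0.18 to 0.22, adjusted p from 0.0583 to 0.117), and with arrays taken as independent (adjusted p = 0.0629). From week 4 to week 12 BDH1 changed by 0.18 (adjusted p = 0.102), and it passed without control animal 1 (0.22, adjusted p = 0.0461) or that animal's week 4 array alone (0.21, adjusted p = 0.0444), and with the mean of its probe sets (0.14, adjusted p = 0.0225).

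In peroxisomes, the enzymes of the first and middle steps gave 3 different courses. ACOX2, the oxidase of branched chains and bile acid intermediates, ran from 9.38 to 9.99 at baseline, from 9.63 to 10.23 at week 4 and from 9.34 to 10.01 at week 12. Its values were highest at week 4 and back at the baseline range by week 12. ACOX2 rose by 0.28 ± 0.06 to week 4 (adjusted p = 0.000522, 11 of 12 animals up) and changed by -0.28 ± 0.06 from week 4 to week 12 (adjusted p = 0.00102), with a net change of 0.00. With the 3′ minus 5′ value in the fit its change to week 4 was 0.16 and did not pass (adjusted p = 0.113). EHHADH, the L-bifunctional enzyme, ran from 8.33 to 9.06 at baseline, from 7.73 to 8.52 at week 4 and from 7.64 to 8.81 at week 12. All 12 animals were lower at week 4 and 10 of 12 at week 12. EHHADH changed by -0.45 ± 0.10 (adjusted p = 0.000506) and -0.37 ± 0.10 (adjusted p = 0.0039) from baseline. HSD17B4, the D-bifunctional enzyme used for branched chains and bile acid side chains, ran from 10.95 to 11.64 at baseline and from 11.12 to 11.81 at week 12. It was higher at week 12 in 10 of 12 animals and rose by 0.23 ± 0.06 (adjusted p = 0.0038). Its change to week 4 was 0.12 (adjusted p = 0.124), or 0.15 without control animal 4 (adjusted p = 0.045), 0.16 with quantile normalization (adjusted p = 0.0155) and 0.14 with the mean of its probe sets (adjusted p = 0.00445).

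SLC27A2, which activates very long chains at peroxisomes and the endoplasmic reticulum, fell early. It ran from 10.24 to 11.02 at baseline, from 9.47 to 10.69 at week 4 and from 9.95 to 11.04 at week 12. It was lower at week 4 in 11 of 12 animals, and by week 12 the top of its range was at the baseline top again. SLC27A2 changed by -0.49 ± 0.11 to week 4 (adjusted p = 0.000538), and a second probe set gave -0.35. Its changes to week 12 were -0.25 from baseline (adjusted p = 0.0885) and 0.25 from week 4 (adjusted p = 0.0866). The former passed without control animal 2 (-0.33, adjusted p = 0.0166), or without animal 4 of the anti-miR-33 arm (-0.31, adjusted p = 0.0376). The latter passed without control animal 1 (0.32, adjusted p = 0.0298) or that animal's week 4 array alone (0.30, adjusted p = 0.0311).

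PEX11A, a membrane protein of peroxisome division, changed by -0.17 to week 4 and -0.16 to week 12 (adjusted p = 0.0651 and 0.119). The week 4 change passed when control animal 4, or animal 3 or 6 of the anti-miR-33 arm, was left out (-0.21 to -0.20, adjusted p from 0.0327 to 0.0397), and the week 12 change passed without anti-miR-33 animal 3 (-0.20, adjusted p = 0.0486). Its second probe set gave larger changes of -0.86 and -0.54, and with the mean of both PEX11A passed at both times (-0.52 and -0.35, adjusted p = 4.05e-05 and 0.00395). CYP4A11, which starts omega oxidation in the endoplasmic reticulum, changed by -0.07 to week 4 and 0.21 from week 4 to week 12 (adjusted p = 0.648 and 0.143, the latter 0.034 with the animal as a fixed block). With the mean of its probe sets the CYP4A11 change to week 4 was -0.25 and passed (adjusted p = 0.027). Its probe set may also bind other transcripts.

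Several steps exist as a mitochondrial and a peroxisomal enzyme, which allows the compartments to be set side by side within an animal. DECR1 and DECR2 reduce 2,4-dienoyl-CoA from unsaturated fatty acids in mitochondria and peroxisomes. DECR1 ran from 10.83 to 11.36 at week 4 and from 10.96 to 11.53 at week 12, while DECR2 ran from 8.58 to 8.98 and from 8.42 to 8.90. In each of the 12 animals DECR1 went up and DECR2 went down between these times, with overlapping ranges for both. DECR1 rose by 0.25 ± 0.06 (adjusted p = 0.00248), DECR2 changed by -0.18 ± 0.05 (adjusted p = 0.0109), and the change of DECR1 minus that of DECR2 was 0.43 ± 0.12 (SD, n = 12). Before that, DECR2 rose by 0.18 to week 4 (adjusted p = 0.0077, 12 of 12 animals up) and DECR1 changed by 0.00. DECR1's rise from baseline to week 12 was 0.25 (adjusted p = 0.00226), while DECR2's net change was 0.00.

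The other pairs gave different balances. For the thiolases, the change of ACAA2 minus that of ACAA1 was -0.20 ± 0.21 (SD, n = 12) to week 4 and 0.46 ± 0.27 from week 4 to week 12, above 0 in 11 of 12 animals. ACAA1 changed by -0.45 over that second interval and ACAA2 by 0.01. For the bifunctional enzymes, the change of HADHA minus that of EHHADH was -0.06 ± 0.31 from baseline to week 12, with 4 animals above 0 and 8 below. The isomerases ECI1 and ECI2 shift the double bond of unsaturated chains. Neither passed the test at any interval: ECI1 changed by 0.01, 0.02 and 0.02 to week 4, from week 4 and over both, and ECI2 by -0.08, 0.32 and 0.25 with a standard error of 0.23.

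The spread of ECI2 lay mostly between animals. Its 36 values split at a gap between 9.60 and 10.07, and each animal's 3 values lay on 1 side of it. Below it lay 4 animals, control animal 3 and anti-miR-33 animals 1, 2 and 3, and above it the other 8. Within an animal the values spanned between 0.15 and 0.81, and the intraclass correlation was 0.95, the highest of the 31 genes. With the animal as a fixed block, ECI2 passed from baseline to week 12 (0.25, adjusted p = 0.00675, 11 of 12 animals up) and from week 4 to week 12 (0.32, adjusted p = 0.000944, 10 of 12 animals up).

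Averaged over genes, the compartments had nearly the same net change. The mean level of the 19 mitochondrial genes changed by -0.21 ± 0.17 (SD, n = 12) to week 4 and -0.14 ± 0.19 to week 12, and that of the 8 peroxisomal genes by -0.12 ± 0.11 and -0.14 ± 0.18. The peroxisomal mean at week 12 leans on ACAA1, which changed by -0.81 from baseline. Smaller changes below 0 were those of EHHADH (-0.37), SLC27A2 (-0.25) and PEX11A (-0.16). HSD17B4 (0.23) and ECI2 (0.25) lay above 0, and ACOX2 and DECR2 hardly changed. The mitochondrial minus peroxisomal mean changed by -0.09 ± 0.10 to week 4 (10 of 12 animals down), by 0.09 ± 0.08 from week 4 to week 12 (9 of 12 up) and by -0.00 ± 0.07 over both intervals (6 up and 6 down). In controls this difference changed by -0.13 ± 0.08 (SD, n = 6) to week 4 and by 0.12 ± 0.05 from there to week 12. Under anti-miR-33 it changed by -0.05 ± 0.10 and 0.05 ± 0.09. It was higher under anti-miR-33 by 0.03 ± 0.08 before treatment, 0.11 ± 0.13 on week 4 arrays and 0.04 ± 0.10 on week 12 arrays. The peroxisomal mean changed after week 4 by -0.11 ± 0.19 in controls and 0.08 ± 0.11 under anti-miR-33. Whether the arms differ in these means was not tested. The dip at week 4 is a change to and from the arrays of the separate number run. Taking the mean of all probe sets of each gene gave 0.0091 in place of -0.09 for the first interval. Leaving out CRAT, ECI2 and SLC27A2, which have more than 1 known location, gave 0.21 in place of 0.09 for the second. Without these genes the other changes moved too, each by less than its SD over animals. The change to week 4 moved further below 0, and that over both intervals moved above 0.

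**Figure D3:**
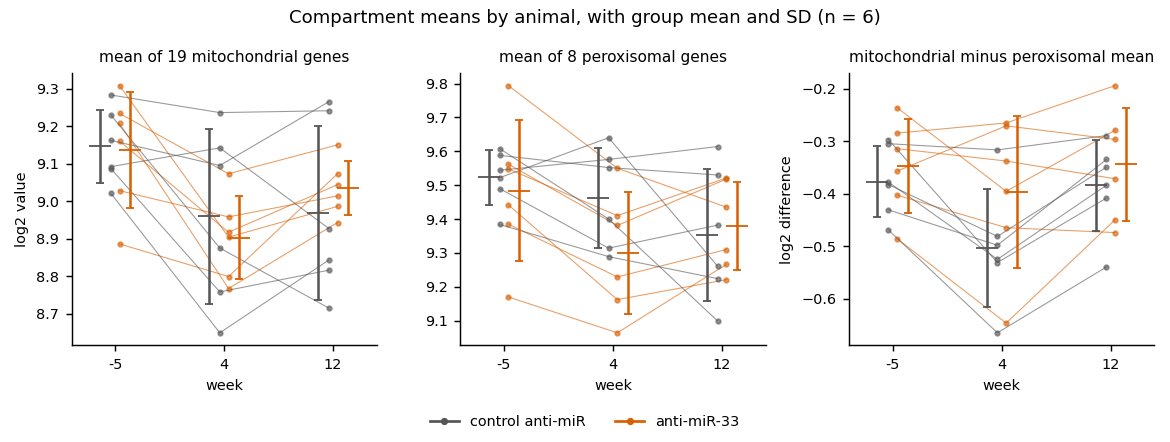
Mean log2 level of the 19 mitochondrial genes, of the 8 peroxisomal genes and their difference, at weeks -5, 4 and 12, with thin lines for animals and group means with SD (n = 6) for each arm. The difference is near -0.4 at baseline and week 12 in both arms and reaches -0.50 in the control arm at week 4.

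Counts to and from week 4, given here side by side, share arrays with the counts above. From baseline to week 4, 14 of the 31 genes passed, 3 higher and 11 lower, against 35.7% of all tested genes (15.1% higher and 20.6% lower). From week 4 to week 12, 10 passed, 5 higher and 5 lower, against 27.6% of all tested genes (13.7% higher and 13.9% lower), a share of 32.3% that lies close to that background. All 14 and all 10 went the same way in both arms, which calls made on the average of the arms again favour.

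The 3′ minus 5′ value moved with the changes from baseline. With that value in the fit, 3 genes passed from baseline to week 12 in place of 16, and the share of all tested genes fell to 5.62%. ACAA1 (-0.76, adjusted p = 0.00745) and ACAA2 (-0.57, adjusted p = 0.0112) kept their calls. HADH gained one (-0.37, adjusted p = 0.0132). The changes of ACSL1 and ETFA turned sign, to -0.02 (adjusted p = 0.968) and -0.04 (adjusted p = 0.805). The rises of DECR1, HSD17B4 and BDH1 shrank to 0.04, 0.06 and 0.09. HADHA (-0.45), ETFB (-0.35), EHHADH (-0.34), ACSL5 (-0.47), ECHS1 (-0.23) and ACAT1 (-0.27) stayed negative without passing, and the changes of CPT2 (-0.25), ACADVL (-0.24) and ACADS (-0.10) moved nearer to 0. Whether RNA quality has a part in these changes was not tested further. From baseline to week 4, 11 genes passed (25.2% of all genes). Of the 14 calls, 7 were lost, those of CPT2 (-0.49, adjusted p = 0.0785), ACADVL (-0.31), ETFB (-0.30), ECHS1 (-0.14), ACAA1 (-0.32), ACOX2 (0.16) and DECR2 (0.13), with adjusted p from 0.0785 to 0.16. HADH (-0.43), ETFA (-0.26), ACADS (0.25) and DECR1 (-0.18) passed in addition. From week 4 to week 12, when the value differed little between times, the same 10 genes passed (27.1% of all genes).

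**Figure D4:**
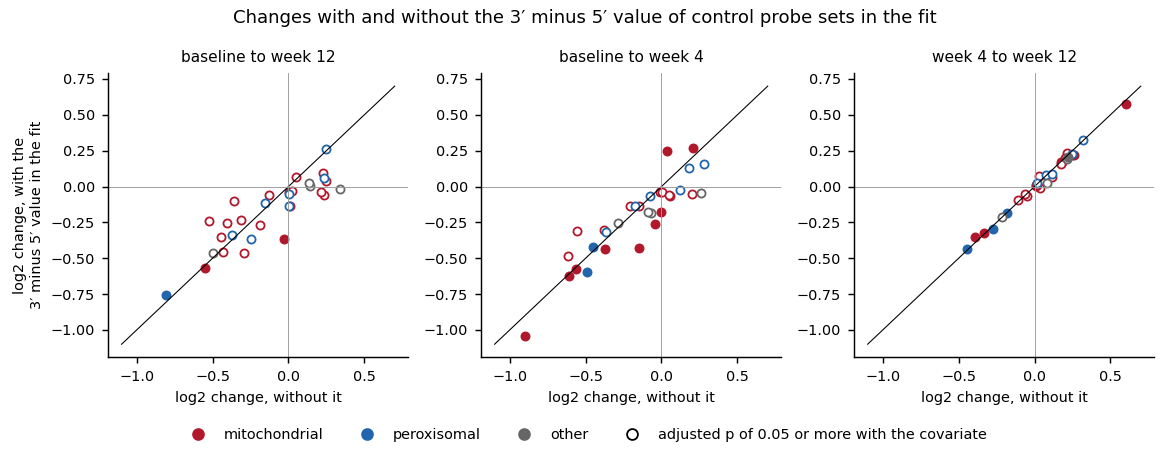
Log2 change of each of the 31 genes with the 3′ minus 5′ value of the control probe sets in the fit (vertical) against the change without it (horizontal), for the 3 intervals; the line marks equal values, colours give the location, and open points did not pass an adjusted p of 0.05 with it. Points for week 4 to week 12 lie along the line, while from baseline to week 12 the called rises move close to 0 and only ACAA1, ACAA2 and HADH are filled.

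The genes also varied together from animal to animal. Measured from the mean of its arm at each time, control animal 6 had the highest average for 14 of the 31 genes, and control animal 5 and control animal 4 the lowest for 9 and 7. Correlations were also taken with the mean of each arm and time removed, over 36 arrays that still share animals and RNA quality. Taken so, r with the mean of the hepatocyte markers ran from -0.09 (ECI2) to 0.56 (FABP1). The part of hepatocyte content in the correlations between genes was not tested. The highest Pearson correlation was between ACAA2 and ACSL5 (r = 0.83), followed by HADHA with ACSL5 (0.83) and ACAA1 with ACSL5 (0.79). The median r was 0.32 over the 171 mitochondrial pairs, 0.08 over the 28 peroxisomal pairs and 0.23 between the compartments. ACOX2 and DECR2 had the lowest mean correlations of 0.01 and 0.02 with the other members.

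Blocking miR-33 gave no called difference in these genes. At each time, 0 of the 31 genes passed between arms in limma, against 0% of all tested genes. At an unadjusted p under 0.05 there were 1, 1 and 0 of the 31, and 531, 662 and 414 of all 13634. The same held for the differences between arms in the change over each interval, where 0 passed of the 31 and of all genes (0%), and 1 of the 31 was under an unadjusted 0.05 at each interval, with 478, 487 and 299 of all genes to week 4, from week 4 and over both. On simulated arrays of the same spread, with 100 genes changed at each size, this test recovered 32% of differences of 0.3 and 87% of differences of 0.6 at week 12. The adjustment is looser where many genes differ, so these shares do not carry over to the arms, where 0 of all genes passed. A difference of either size could be missed here, and more so for genes of wide spread.

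The direction of the differences shifted between times. At baseline 11 of the 31 genes were higher in the anti-miR-33 arm, with a median difference of -0.03. At week 4 there were 8, with a median of -0.13, and at week 12 there were 23, with a median of 0.09. Over all tested genes 47.5%, 53% and 49.3% were higher, with medians of -0.01, 0.01 and -0.00. The 31 genes share arrays and vary together, so these counts are a description. Without the week 4 array of control animal 1, which carries the other diet label, 9 of the 31 were higher at week 4, with a median of -0.05. Without the week 12 array of control animal 5, the array with low hepatocyte markers, 15 of the 31 were higher at week 12, with a median of -0.00. All 20 hepatocyte markers were higher in the anti-miR-33 arm at that time (median 0.15, 0 passed), with array means of 11.80 to 12.42 in the control arm and 12.32 to 12.48 in the other. With all arrays, 14 of 19 mitochondrial and 5 of 8 peroxisomal genes were higher at week 12, against 6 and 1 at week 4.

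**Figure D5:**
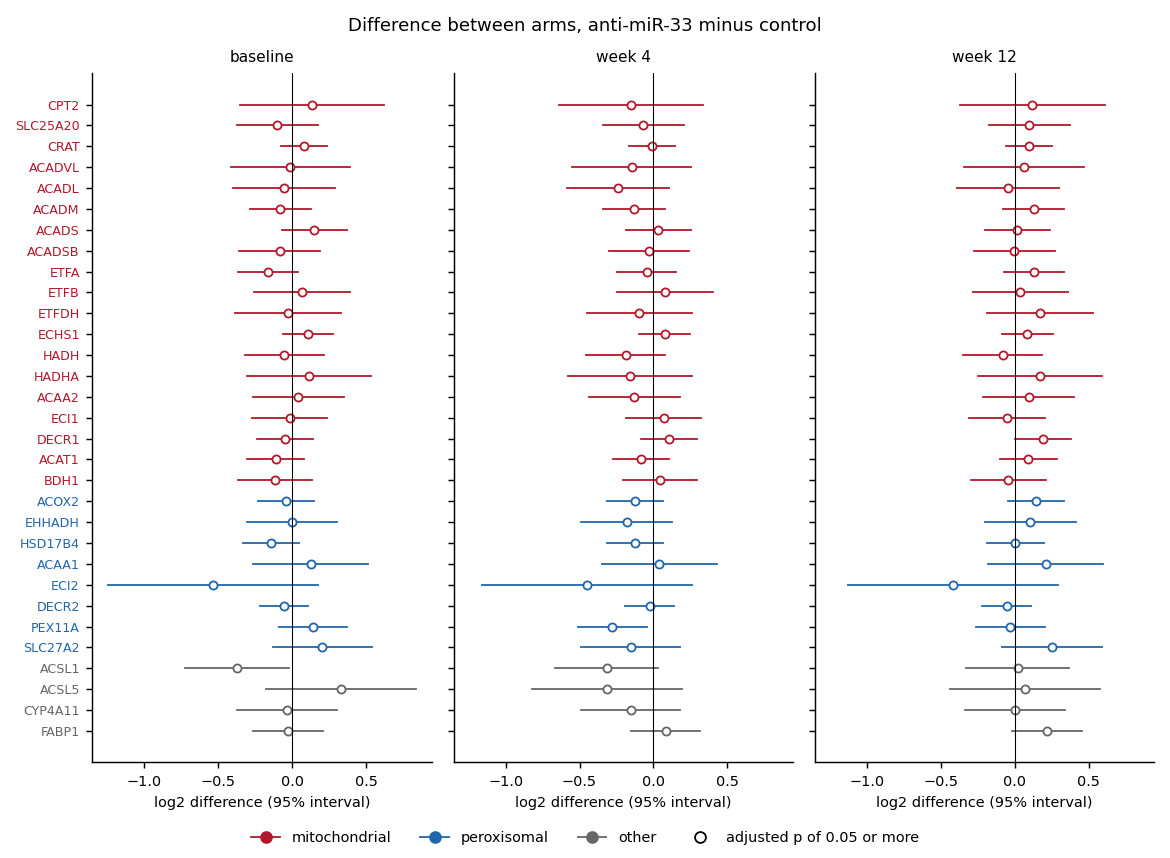
Log2 difference of the 31 genes, anti-miR-33 minus control (6 animals each), with 95% intervals from the limma fit at baseline, week 4 and week 12; colours give the location, and all points are open since none passed an adjusted p of 0.05. Points lean left of 0 at week 4 (8 of 31 above 0) and right of it at week 12 (23 of 31, or 15 without 1 control array), and nearly all intervals include 0.

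At week 12 the smallest p-values belonged to DECR1 and FABP1. DECR1 ran from 10.96 to 11.44 with a median of 11.23 in the control arm and from 11.28 to 11.53 with a median of 11.39 in the anti-miR-33 arm. Of the 6 anti-miR-33 animals, 2 lay above the highest control. The difference was 0.19 ± 0.09 (SE, 95% interval -0.00 to 0.38, adjusted p = 0.998). FABP1 ran from 8.17 to 9.09 in the control arm and from 8.91 to 9.20 in the anti-miR-33 arm, and differed by 0.22 ± 0.12 (adjusted p = 0.998). Its low end is control animal 5, whose array had the low hepatocyte markers. Without that array the differences were 0.15 for DECR1 and 0.08 for FABP1. The second FABP1 probe set, which was dim, gave -0.07 with all arrays. The 2 thiolases differed by 0.09 for ACAA2 (interval -0.22 to 0.40) and 0.21 for ACAA1 (interval -0.18 to 0.60), and HADHA by 0.17 (interval -0.25 to 0.59). Without the same array ACAA2 differed by -0.02, ACAA1 by 0.04 and HADHA by 0.10.

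PEX11A had the smallest p of the 31 genes for a difference in change. In the control arm it ran from 6.74 to 7.47 with a median of 7.21 at baseline and from 6.92 to 7.42 with a median of 7.23 at week 4. In the anti-miR-33 arm it ran from 7.08 to 7.54 with a median of 7.32 at baseline and from 6.66 to 7.07 with a median of 6.96 at week 4. All 6 anti-miR-33 animals were lower at week 4, with no overlap between those times, while 3 control animals went up and 3 down. The changes were -0.38 ± 0.11 and 0.04 ± 0.11 (SE), a difference of -0.42 ± 0.15 (adjusted p = 1), and the second probe set gave -0.25. At week 4 itself PEX11A differed by -0.28 (adjusted p = 0.998).

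The remaining members under an unadjusted 0.05 were 3. ACSL1 was lower by 0.37 on the log2 scale in the animals later given anti-miR-33 already at baseline (-0.37 ± 0.17, adjusted p = 0.999), where its second bright probe set gave -0.04. ACOX2 changed from week 4 to week 12 by -0.41 in the control arm and -0.14 in the anti-miR-33 arm, a difference of 0.27 ± 0.12 (adjusted p = 0.999). ETFA changed from baseline to week 12 by 0.07 in the control arm and 0.36 in the anti-miR-33 arm, a difference of 0.29 ± 0.13 (adjusted p = 0.999). ACSL5 had the largest difference in change to week 4, -0.65 ± 0.33 (interval -1.31 to 0.01, adjusted p = 1). ECI2 was lower in the anti-miR-33 arm by 0.54, 0.45 and 0.42 on the log2 scale at the 3 times (-0.54, -0.45 and -0.42, each with an SE of 0.35), already before treatment, and 3 of the 4 low animals were in that arm.

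The reported miR-33 targets of the same chain did not pass the test between arms either. CROT, which loads shortened chains onto carnitine in peroxisomes, ran from 8.08 to 8.63 with a median of 8.28 in the control arm at week 12 and from 8.26 to 9.02 with a median of 8.71 in the anti-miR-33 arm. The anti-miR-33 values sat higher with an overlap, and 4 of them lay above the highest control value. CROT's arm difference was -0.08 ± 0.11 before treatment, 0.23 ± 0.11 at week 4 and 0.35 ± 0.11 at week 12 (adjusted p = 0.998). HADHB, the beta subunit that joins HADHA in the trifunctional protein, ran from 7.63 to 8.65 with a median of 7.82 in the control arm at week 12 and from 8.31 to 8.80 with a median of 8.49 in the anti-miR-33 arm. HADHB differed by 0.06, 0.03 and 0.51 ± 0.16 at the 3 times (adjusted p = 0.998 at week 12), where HADHA differed by 0.17 ± 0.21. For HADHB, 1 anti-miR-33 value lay above the highest control value at week 12. Whether the CROT and HADHB differences depend on the week 12 control array with low hepatocyte markers was not tested. CPT1A, the gate of carnitine entry, had arm differences of 0.13 before treatment, -0.18 at week 4 and 0.23 ± 0.37 at week 12 (adjusted p = 0.998), and over both arms it changed by -0.45 from baseline to week 12 (adjusted p = 0.168). CROT's mean level went from 8.32 at baseline to 8.33 at week 12 in the control arm and from 8.24 to 8.68 in the anti-miR-33 arm, a difference in change of 0.43 ± 0.14 (adjusted p = 0.999).

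Of the rest of the pathway, 28 other genes listed with mitochondrial oxidation gave 4 higher and 3 lower from baseline to week 12. That share of 25% lies close to the background of 27.4%. The list goes by pathway, and some of its products, such as those of BDH2 and SLC22A5, act outside mitochondria. The epimerase MCEE (0.65, adjusted p = 0.000437), the carboxylase subunit PCCB (0.30, adjusted p = 0.00167), the mutase MMUT (0.27, adjusted p = 0.00959) and BDH2 (0.18) rose. SLC25A42, a mitochondrial coenzyme A carrier (-0.34, adjusted p = 0.00877), ACAD10 (-0.33) and the carnitine importer SLC22A5 (-0.26) fell. The 29 other peroxisomal genes gave 6 higher and 5 lower, or 37.9%. NUDT7, which hydrolyses coenzyme A (0.62, adjusted p = 6.03e-05), the protease LONP2 (0.42), CAT (0.29) and CROT (0.22, adjusted p = 0.0161, the average of the unequal arms given above) were among those higher. HACL1, which splits 2-hydroxy fatty acids in alpha oxidation (-0.62, adjusted p = 1.15e-05), HSDL2 (-0.36) and PECR (-0.25) were among those lower. Of 10 peroxisome assembly genes, PEX3 (0.59, adjusted p = 9.32e-06) and PEX7 (0.35) rose and 4 fell, PEX6 (-0.43) the furthest. Of all tested genes, 10.9% rose and 16.5% fell over that interval. These lists too were chosen with earlier results known, and their counts are a description only.

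Among 29 regulators and other PPARA targets, 3 rose and 8 fell from baseline to week 12. That is 37.9%, against 27.4% of all tested genes (10.9% higher and 16.5% lower). The list was chosen with earlier results of these data known, so its share is a description only. The fatty acid importer CD36 (0.95, adjusted p = 0.00132), G0S2, an inhibitor of lipolysis (0.61), and KLF15 (0.29) rose. TXNIP (-0.68, adjusted p = 0.00206), the bile acid CoA ligase SLC27A5 (-0.57), CREB3L3 (-0.44), the hepatokine FGF21 (-0.43, adjusted p = 0.0143), the mitochondrial carrier SLC25A47 (-0.39) and RXRB (-0.25), a partner of PPARA, were among those that fell. PPARA itself changed by -0.07 (adjusted p = 0.591) and PPARGC1A, a coactivator, by -0.08 (adjusted p = 0.884).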

How the data were processed

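Liver RNA of 36 biopsies was labelled and hybridised to HG-U133 Plus 2.0 arrays. The authors deposited log2 values for 54675 probe sets, from 2.41 to 15.07. Per the submitters' processing notes they came from RMA (background correction, normalization between arrays and summary of probes), with the version not given in the sources used here. RMA removes a shift shared by most transcripts, and the number of arrays limits the precision. Gene names came from the platform annotation (41097 probe sets with 1 gene, 1801 with several, 11777 not listed), and all members were named, with the brightest probe set of each gene, where its mean was at least 4.459.

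A model of 6 group means, with the animal (known from the labels) as a random block of correlation 0.15, was fitted to all arrays in limma 3.58.1 under R 4.3.3. Two-sided p-values were adjusted by Benjamini-Hochberg over 13634 genes in each of 9 comparisons, with a threshold of 0.05, and the fit was tested on simulated data. The arm of a baseline array came from the animal's later labels. Other pathway genes were those called in a change over time, at most the 6 largest per direction and list, and CPT1A, HADHB, CROT, PPARA and PPARGC1A whatever their values. The members and lists were chosen with earlier results of these data known. Alternatives covered the block, the filter, the probe sets, the normalization, the 3′ minus 5′ value, the variance model, 2 single arrays and each animal. Arm differences that share arrays and the 3 changes over time, which share them too, are not independent. Another probe set was taken to disagree at under 50% of the change or the opposite sign. Sequences were not used here.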

Additional observations from a re-analysis of the deposited data

Results flagged for a closer look

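In groups of 6 arrays, 11 of 186 sets of member values held an array far from the other 5, which is 5.91%, and chance gives about 1 in 20. In the anti-miR-33 arm at week 12, animal 6 was high for SLC25A20 (8.98) and ETFDH (9.25), and at week 4 it was high for ACAT1 (12.36). Also in that arm, animal 5 was high for ACADM at baseline (5.35) and animal 4 was low for ECHS1 at week 4 (9.85). In the control arm, animal 6 was high for ACADS at week 4 (7.13) and for ACAA2 at baseline (11.70), and animal 5 was high for ACADS at baseline (6.79). Control animal 3 was low for ECI2 at baseline (9.35), as at its other times. At week 12, control animal 2 was high for SLC27A2 (10.91), and control animal 5 was low for FABP1 (8.17), on the array with the low hepatocyte markers.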

How the results depend on the processing

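Over the alternatives, 381 recomputed counts and compartment differences stayed within the set limits of size, and 3 did not. For a compartment difference the limit was its SD over animals, which was 0.10, 0.08 and 0.07 to week 4, from week 4 and over both intervals. That is about as large as these differences or larger, so staying within it says little about their stability. Direction was not part of these limits, so compartment differences near 0 that changed sign are among the 381. So are the counts between arms, which were 0 throughout. The 3 outside the limits included the count of members from baseline to week 12 with the 3′ minus 5′ value in the fit (3 in place of 16). The others were mitochondrial minus peroxisomal changes. They were 0.0091 to week 4 with the mean of all probe sets and 0.21 from week 4 to week 12 without the members of more than 1 location. The causes were not tested. Among members with a call, ETFA (-0.041) and ACSL1 (-0.016) turned sign from baseline to week 12 with the 3′ minus 5′ value. With the animal as a fixed replicate block 15, 12 and 19 members passed to week 4, from week 4 and over both intervals, with no call lost; without a replicate block 14, 10 and 13 passed, CPT2, BDH1 and ACSL1 being lost over both intervals. Leaving out 1 animal gave 13 to 16, 8 to 12 and 13 to 17 members in the same order, and 0 between arms. The compartment difference then ran from -0.10 to -0.08, from 0.07 to 0.09 and from -0.01 to 0.01 over time, from 0.01 to 0.06, from 0.07 to 0.16 and from 0.01 to 0.07 between arms at baseline, week 4 and week 12, and from 0.05 to 0.10, from -0.10 to -0.05 and from -0.01 to 0.03 for the arms' difference in change.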
